A study of Mus musculus with 12 samples.

Results

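The TRAV3 family of T cell receptor (TCR) alpha chain variable segments was followed here across sorted splenic CD8+ T cells of the mouse. Members were cells in the deposited cell table whose alpha chain (TRA) contig with the most unique molecular identifiers (UMIs) carried TRAV3-1, TRAV3D-3, TRAV3N-3, TRAV3-3 or TRAV3-4. They numbered 4121 of 66136 cells with a TRA. TRAV3N-3 was called in 2704 of them, TRAV3-3 in 1028, TRAV3-1 in 217 and TRAV3-4 in 172, and TRAV3D-3 was called in 0. A clonotype was the pair of nucleotide CDR3s of a cell's TRA and beta chain (TRB). TRAV3 made up 2890 of 47120 clonotypes. The family was selected on its measured share of cells in the Tex libraries, so its treatment differences by cells describe what selected it and support nothing.

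Cells came from spleens of wild-type C57BL/6 mice treated for 14 days with antibody against CD137, also called 4-1BB, a costimulator on T cells, or else with control immunoglobulin (Ig). The anti-CD137 group was 5 mice that received 10 µg of clone 3H3 at each of 2 injections a week, and the control group was 10 mice that received 100 µg of clone HRPN on the same schedule. From CD44-high cells, 3 subsets were sorted in each group, exhausted cells (Tex: PD1+, Slamf6-, Tim3+), precursor exhausted cells (Tpex: PD1+, Slamf6+, Tim3-) and effector cells (Teff: PD1-). Each treatment and subset gave 1 gene expression and 1 TCR library. The labels do not say which mouse a cell came from, so no difference has a replicate check and no test was run. Dose, antibody clone and number of mice differ together with the treatment and cannot be told apart from it. Expression of the sort markers was not analysed here. Shares carry exact 95% binomial intervals, from which those of differences were computed. They cover counting error only, and cells of the same clonotype share their origin.

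An alpha chain is assembled in the thymus by joining a TRAV to a TRAJ segment, with bases trimmed and added at the junction that becomes CDR3. The germline TRAV encodes CDR1 and CDR2, which in most known receptors lie over the MHC helices, while CDR3 lies over the bound peptide. In C57BL/6 mice a stretch of the TRAV region exists in several copies, and the letters D and N mark members of the repeated blocks. Rearrangement starts with TRAV and TRAJ segments near each other in the locus and can be followed on the same chromosome by joins of segments farther out on both sides.

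The copies are hard to tell apart by sequence, so the coding part of their second exon is shown, which holds nearly the whole V domain. Sequences and positions are from the GENCODE M21 annotation of GRCm38 (mm10), all on the plus strand and each 291 bases long. Capitals mark bases that differ from TRAV3N-3 at the same place in the exon.
TRAV3-1 (chr14:52580923-52581213): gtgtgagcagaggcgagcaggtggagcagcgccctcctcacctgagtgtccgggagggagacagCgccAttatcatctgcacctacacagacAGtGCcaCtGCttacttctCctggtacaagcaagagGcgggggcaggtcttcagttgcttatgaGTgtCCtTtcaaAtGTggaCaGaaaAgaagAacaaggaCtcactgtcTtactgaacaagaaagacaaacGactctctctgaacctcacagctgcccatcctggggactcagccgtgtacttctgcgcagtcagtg
TRAV3N-3 (chr14:53283885-53284175): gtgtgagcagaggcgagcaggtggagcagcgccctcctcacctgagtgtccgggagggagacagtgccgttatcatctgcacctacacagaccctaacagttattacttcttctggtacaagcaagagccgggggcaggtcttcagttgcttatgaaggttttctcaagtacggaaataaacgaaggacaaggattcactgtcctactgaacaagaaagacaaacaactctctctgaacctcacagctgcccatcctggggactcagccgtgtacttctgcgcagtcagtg
TRAV3-3 (chr14:53666216-53666506): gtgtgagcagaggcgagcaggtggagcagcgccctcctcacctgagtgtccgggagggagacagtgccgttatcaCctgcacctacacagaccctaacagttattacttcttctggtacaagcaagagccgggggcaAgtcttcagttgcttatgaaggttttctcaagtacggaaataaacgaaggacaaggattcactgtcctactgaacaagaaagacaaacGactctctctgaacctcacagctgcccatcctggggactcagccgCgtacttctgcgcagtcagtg
TRAV3-4 (chr14:53777286-53777576): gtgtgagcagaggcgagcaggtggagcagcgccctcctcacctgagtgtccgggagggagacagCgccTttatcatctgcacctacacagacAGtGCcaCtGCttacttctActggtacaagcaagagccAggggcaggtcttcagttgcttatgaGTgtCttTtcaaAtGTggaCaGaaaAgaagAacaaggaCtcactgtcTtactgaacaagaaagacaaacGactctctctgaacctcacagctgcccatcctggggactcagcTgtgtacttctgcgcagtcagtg
The genes lie on chromosome 14 in the order TRAV3-1 (chr14:52580665-52581213), TRAV3D-3 (chr14:52972448-52973038), TRAV3N-3 (chr14:53283585-53284175), TRAV3-3 (chr14:53665929-53666506) and TRAV3-4 (chr14:53776956-53777576). The TRAJ segments follow, with Traj61 (chr14:54155005-54155076) nearest and Traj1 (chr14:54218814-54218842) farthest. The annotated transcripts of TRAV3D-3 and TRAV3N-3 were identical in all 427 bases, so cells called TRAV3N-3 can come from either gene. TRAV3-3 differed from TRAV3N-3 at 4 of the 291 bases, and TRAV3-1 and TRAV3-4 each differed from it at 26 and from each other at 6.

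The deposited contigs followed this grouping. The CDR1 DPNSYY was in 3637 of 3639 TRAV3N-3 and 1294 of 1295 TRAV3-3 contigs, and the CDR2 VFSSTEI in 3639 and 1294 of them. TRAV3-1 and TRAV3-4 contigs had the CDR1 DSATAY, with VLSNVDR in TRAV3-1 and VFSNVDR in TRAV3-4 as CDR2. Over the 267 bases from framework 1 to framework 3, 99.6% of TRAV3N-3 contigs (3625 of 3639) were identical to their germline segment, against 66.3% of TRAV3-3 contigs (858 of 1295), 78.1% of TRAV3-1 contigs and 83.7% of TRAV3-4 contigs. The V domain of 1 contig, a TRAV3-3 contig, was closer to another copy, and of 194 TRAV3 clonotypes with at least 2 cells, 0 held cells called as more than 1 copy.

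The anti-CD137 Tpex library stood apart in depth, and its values carry this limit. Median UMIs per cell were 3473 in anti-CD137 Tex and 5619 in control Tex, and 1950 in anti-CD137 Tpex and 4729 in control Tpex. Of TCR barcodes, 35.2% in anti-CD137 Tex and 66.9% in anti-CD137 Tpex lacked an entry in the cell table, against 3.16% in control Tex and 14.5% in control Tpex. In anti-CD137 Tpex, cells with the same recurrent TRB carried the same TRA in 41.6% of comparisons, against 91.9% in control Tpex, while in Tex it was 89.7% in anti-CD137 cells and 95.7% in control cells. In Teff it was 49.4% in anti-CD137 cells and 35.8% in control cells, so a low value was not particular to anti-CD137 Tpex. The part of these differences in the results was not tested.

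By cells, TRAV3 was high in anti-CD137 Tex and low in control Tex. It made up 15.4% of TRA cells in anti-CD137 Tex (739 of 4789) and 3.00% in control Tex (237 of 7906), a ratio of 5.15 and a difference of 12.4 percentage points (11.3 to 13.5). In Tpex it stood at 6.89% after anti-CD137 (314 of 4556) and 4.34% in control cells (442 of 10178), a difference of 2.55 points (1.72 to 3.42). In Teff it stood at 6.20% after anti-CD137 (1294 of 20856) and 6.13% in control cells (1095 of 17851), a difference of 0.0703 points (-0.415 to 0.554). Ordered by level, anti-CD137 Tex stood first, followed by anti-CD137 Tpex and both Teff libraries, whose intervals overlapped, then control Tpex and control Tex, each below the one before.

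Counted by clonotypes, each receptor once per library, the 6 libraries lay close together. TRAV3 made up 6.84% of clonotypes in anti-CD137 Tex (90 of 1316) and 5.69% in control Tex (64 of 1124), a difference of 1.14 points (-0.857 to 3.12). The shares were 6.22% in anti-CD137 Tpex and 5.97% in control Tpex, with a difference of 0.256 points (-0.765 to 1.30), and 6.17% in anti-CD137 Teff and 6.03% in control Teff, with a difference of 0.138 points (-0.358 to 0.632). All 3 intervals included 0.

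**Figure D1:**
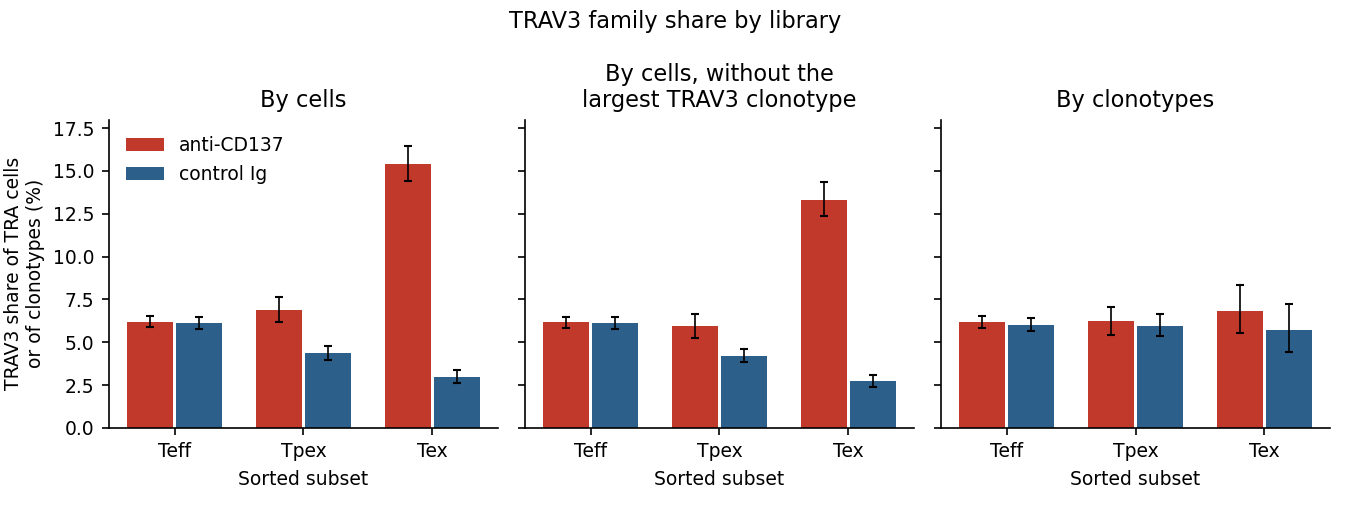
TRAV3 family share (vertical axis, percent of TRA cells or of clonotypes) in the 3 sorted subsets (horizontal axis), with anti-CD137 in red and control Ig in blue, and exact 95% intervals as error bars. By cells Tex stands at 15.4% with anti-CD137 and 3.00% with control Ig, and by clonotypes all 6 bars lie between 5.69% and 6.84%.

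Removing the largest TRAV3 clonotype of each library left 13.3% in anti-CD137 Tex against 2.73% in control Tex, and 5.94% in anti-CD137 Tpex against 4.21% in control Tpex. Without the 3 largest it was 9.42% in anti-CD137 Tex against 2.22% in control Tex, a difference of 7.20 points. Cells of the 90 anti-CD137 Tex clonotypes numbered 8.14 per clonotype, against 3.25 for other TRAV clonotypes of that library. In control Tex the order was the opposite, with 3.17 cells per TRAV3 clonotype against 7.15 for other TRAV. Cells per clonotype depend on the cell numbers on which the family was selected, so these comparisons support nothing. The 10 largest TRAV3 clonotypes held 73.1% of paired TRAV3 cells in anti-CD137 Tex and 64.0% in control Tex. Clonotypes of a single cell were 46 of 90 in anti-CD137 Tex and 39 of 64 in control Tex.

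Shares of all TRAV segments add up to a whole, so many move together. Of 38 segments reaching 1% of TRA cells in at least 1 Tex library, 28 had intervals apart between treatments (73.7%), 14 of them higher with anti-CD137 (36.8%). TRAV3N-3 and TRAV3-3 were among these 14 and had the first and second largest rise in points. In Tpex 19 of 41 segments had intervals apart (46.3%), 12 of them higher with anti-CD137 (29.3%), TRAV3N-3 among them but not TRAV3-3. In Teff 0 of 42 were apart. By clonotypes 1 of 43 segments was apart in Tex (2.33%), 10 of 45 in Tpex (22.2%) and 0 of 41 in Teff, and 0 of these were TRAV3 copies. Over the 6 libraries, the 3 of 50 other segments whose share by cells was most like that of the family were TRAV13-4-DV7 (Pearson r = 0.990), TRAV13-2 (0.965) and TRAV9N-4 (0.935), and all were highest in anti-CD137 Tex, with 2.61%, 4.97% and 1.44% of its TRA cells.

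TRAV3N-3 and TRAV3-3 held most of the cells of the family. TRAV3N-3, the main copy, made up 9.88% of TRA cells in anti-CD137 Tex (473 cells) and 2.04% in control Tex (161 cells), a difference of 7.84 points (6.94 to 8.77), and 5.14% in anti-CD137 Tpex and 2.81% in control Tpex. Without the 3 largest TRAV3 clonotypes of each library, TRAV3N-3 was at 5.77% in anti-CD137 Tex and 1.53% in control Tex, a difference of 4.24 points (3.51 to 5.01). TRAV3-3 made up 5.05% in anti-CD137 Tex (242 cells) and 0.455% in control Tex (36 cells), a ratio of 11.1 and a difference of 4.60 points (3.97 to 5.27). In Tpex, TRAV3-3 was at 1.27% after anti-CD137 and 1.08% in control cells, with an interval of the difference of -0.184 to 0.609 points. TRAV3N-3 stood apart between treatments in both PD1+ subsets, and TRAV3-3 in Tex, while a test of the difference between subsets was not run.

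The rare copies, which share the other CDR1, held few cells. TRAV3-1 made up 0.292% of TRA cells in anti-CD137 Tex (14 cells) and 0.0379% in control Tex (3 cells). TRAV3-4 made up 0.209% in anti-CD137 Tex (10 cells) and 0.468% in control Tex (37 cells), the only copy lower by cells in anti-CD137 Tex. Without the largest clonotype of each library, which in control Tex was a TRAV3-4 receptor, TRAV3-4 was at 0.214% with anti-CD137 and 0.190% in control Tex. Together the copies with CDR1 DPNSYY made up 14.9% of TRA cells in anti-CD137 Tex and 2.49% in control Tex. By clonotypes the interval of the treatment difference included 0 for each of the 4 copies in each subset. TRAV3D-3 was called in 0 cells. Because its annotated transcript is identical to that of TRAV3N-3, the absence of calls sets no limit on its use.

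**Figure D2:**
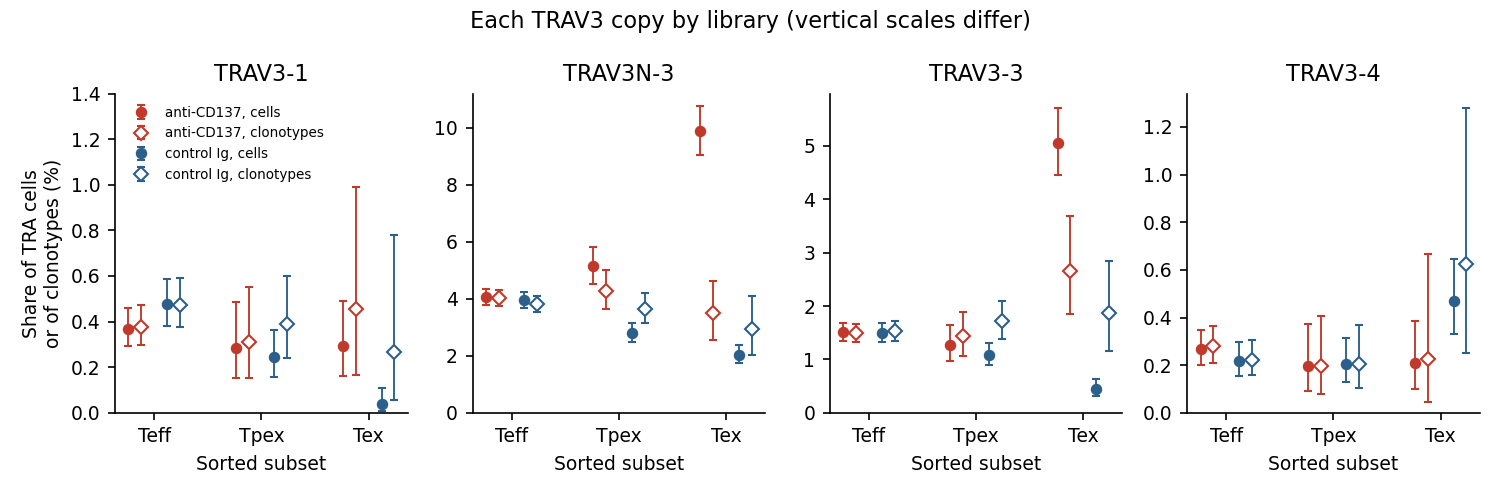
Share of each TRAV3 copy (vertical axis, percent, scales differ between panels) by sorted subset (horizontal axis), with anti-CD137 in red, control Ig in blue, filled circles for cells, open diamonds for clonotypes and bars for exact 95% intervals. TRAV3N-3 and TRAV3-3 stand at 9.88% and 5.05% of anti-CD137 Tex cells, and their clonotype shares there are 3.50% and 2.66%.

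Within the family TRAV3N-3 held between 64.0% and 74.5% of TRAV3 cells in each library. TRAV3-3 held 32.7% in anti-CD137 Tex and 15.2% in control Tex, against 24.3% in anti-CD137 Teff and 24.4% in control Teff. TRAV3-4 held 1.35% in anti-CD137 Tex and 15.6% in control Tex.

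The TRAV3 chains of anti-CD137 Tex met a particular pair of partners. TRBV31, a beta segment that lies inverted behind the rest of its locus (chr6:41557691-41558452, minus strand), was paired with TRAV3 in 291 of 733 paired cells (39.7%) and 11 of 90 clonotypes (12.2%, 6.26 to 20.8). Other TRAV chains of the same library had TRBV31 in 1.36% of cells and 1.96% of clonotypes (1.26 to 2.90). All 291 cells and 11 clonotypes joined TRAV3 to TRAJ31 (chr14:54187895-54187951). TRAJ31 was joined in 41.5% of TRAV3 paired cells and 18.9% of TRAV3 clonotypes there (17 of 90, 11.4 to 28.5), against 3.89% of cells and 4.08% of clonotypes with other TRAV (3.04 to 5.34). This pairing was noticed in these cells and carries no test.

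The nucleotide junctions of these alpha chains are shown because nearly identical proteins were built from different bases. Each runs 5′ to 3′ from the conserved cysteine codon to the conserved phenylalanine codon, and capitals mark bases that match neither the germline TRAV nor TRAJ31.
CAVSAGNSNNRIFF, form 1: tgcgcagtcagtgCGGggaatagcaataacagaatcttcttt
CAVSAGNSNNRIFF, form 2: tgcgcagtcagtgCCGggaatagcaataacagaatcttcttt
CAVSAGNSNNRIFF, form 3: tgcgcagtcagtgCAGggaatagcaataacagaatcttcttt
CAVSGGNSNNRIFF: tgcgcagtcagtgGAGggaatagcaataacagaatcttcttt
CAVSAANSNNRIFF: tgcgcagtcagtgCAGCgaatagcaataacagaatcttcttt
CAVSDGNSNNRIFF: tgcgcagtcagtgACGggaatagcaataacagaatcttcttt
Thus 11 clonotypes used 6 nucleotide and 4 amino acid forms of the motif CAVSxxNSNNRIFF, in which x is any residue. Form 1 was in 4 clonotypes with 221 cells, 3 of them on TRAV3-3 (122 cells) and 1 on TRAV3N-3 (99 cells), so that identical junction bases stood behind different V copies. In all, TRAV3-3 carried 7 of the 11 clonotypes with 166 cells and TRAV3N-3 carried 4 with 125 cells. The copies with the other CDR1, TRAV3-1 and TRAV3-4, carried 0, among 9 paired clonotypes that they had in that library.

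Their beta chains differed from each other in all 11 clonotypes. They had 11 nucleotide and 10 amino acid CDR3s with 6 TRBJ segments, and 9 of 11 fitted CAWSxxG at their start, against 20.8% of TRBV31 clonotypes with other TRAV in that library. In the Teff and Tpex libraries 24.8% to 33.3% of TRBV31 clonotypes with other TRAV fitted it. This pattern was noticed in these same chains, so the comparison supports nothing. The beta junctions of the largest 3 are shown to let their shared start and different ends be seen.
TRBV31 with TRBJ2-2 (103 cells): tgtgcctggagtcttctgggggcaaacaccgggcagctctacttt
TRBV31 with TRBJ1-1 (99 cells): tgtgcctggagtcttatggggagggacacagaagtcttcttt
TRBV31 with TRBJ2-1 (29 cells): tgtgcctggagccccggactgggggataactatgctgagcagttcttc
The largest of these and a clonotype of 12 cells had identical amino acids in both CDR3s but other bases in both, with form 1 of the alpha chain in the largest and form 2 in the other. The sizes of the 11 clonotypes were 103, 99, 29, 24, 12, 10, 9, 2, 1, 1 and 1 cells.

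**Figure D3:**
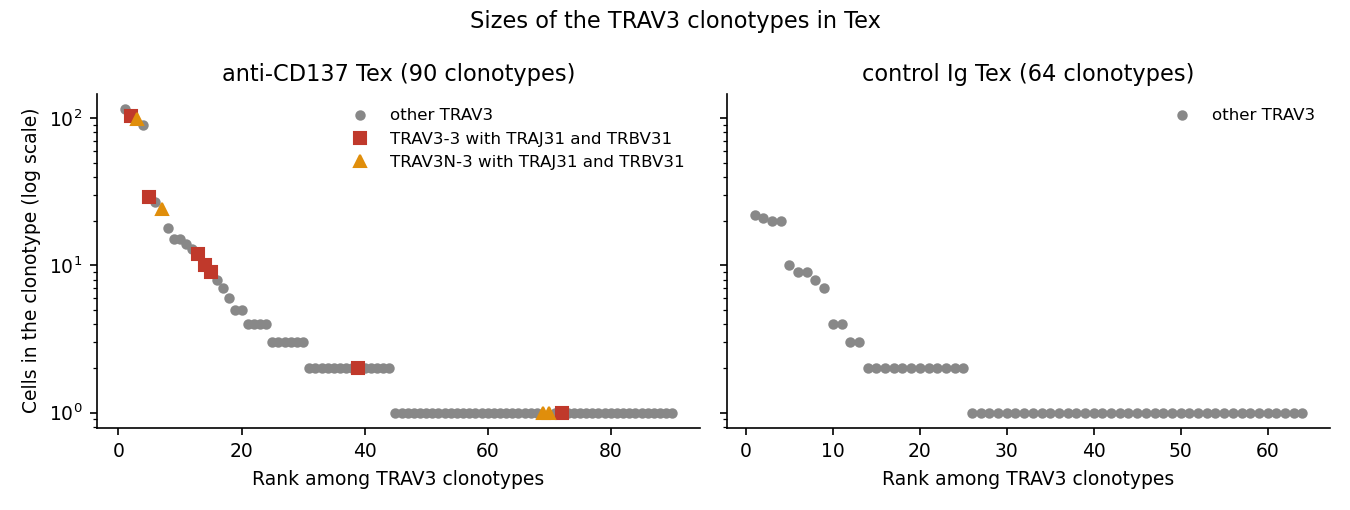
Cells per TRAV3 clonotype (vertical axis, log scale) against rank (horizontal axis) in anti-CD137 Tex (left) and control Tex (right), with TRAJ31 and TRBV31 receptors as red squares (TRAV3-3) and orange triangles (TRAV3N-3). The largest clonotypes hold 116 cells in anti-CD137 Tex and 22 in control Tex, and 0 control clonotypes carry TRAJ31 with TRBV31.

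Outside anti-CD137 Tex the combination was rare. TRAV3 with TRAJ31 and TRBV31 was found in 5 cells of anti-CD137 Tpex (4 clonotypes), 4 cells of anti-CD137 Teff, 1 cell of control Tpex and 1 cell of control Teff. It was in 0 of 203 paired TRAV3 cells of control Tex, which allows a share of up to 1.48%. The alpha motif itself was in 15 of 90 TRAV3 clonotypes of anti-CD137 Tex (16.7%) and 0 of 64 of control Tex, in 10 of 221 of anti-CD137 Tpex (4.52%) and 1 of 320 of control Tpex (0.312%), and in 5 of 1211 of anti-CD137 Teff (0.413%) and 1 of 1029 of control Teff (0.0972%). The intervals of the Tpex libraries were apart (2.19 to 8.16 and 0.00791 to 1.73), and those of Teff overlapped. The motif was noticed in anti-CD137 Tex of the same pooled mice, so these comparisons support nothing. The Tex receptor of 99 cells, for example, had 2 cells in anti-CD137 Tpex. In anti-CD137 Tpex 4 of the 10 motif clonotypes had TRBV31. Cells of that library with the same recurrent TRB carried the same TRA in 41.6% of comparisons. Whether stray alpha chains add to its motif clonotypes was not tested. Other TRAV chains had the motif in 0 of 1226 clonotypes of anti-CD137 Tex and 0 of 1060 of control Tex. Of the 54 TRAV segments with at least 20 paired cells in anti-CD137 Tex, TRAV3-3 (68.9%) and TRAV3N-3 (26.7%) had the highest shares of TRBV31, followed by TRAV8-1 (10 of 40 cells, 0 of them with TRAJ31).

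**Figure D4:**
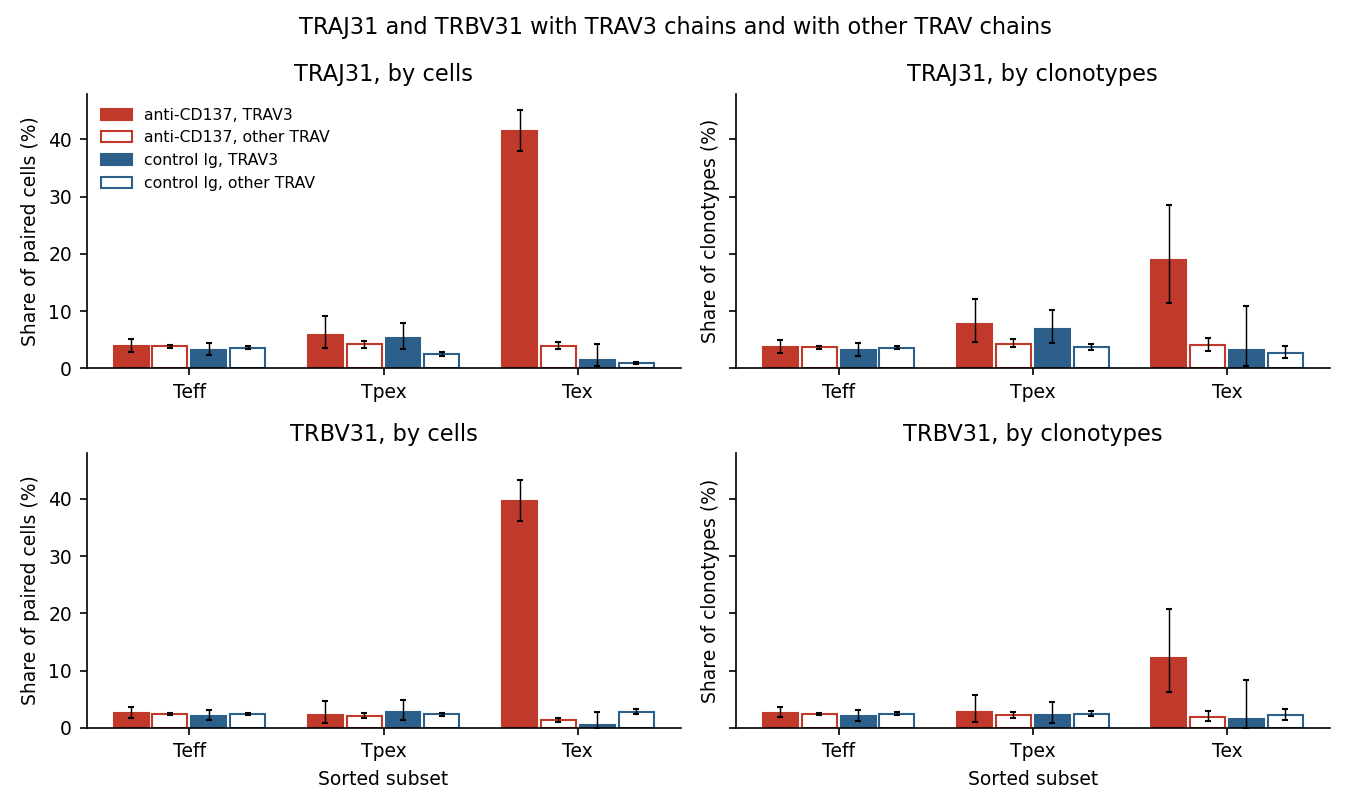
Share of TRAJ31 (top) and TRBV31 (bottom) among paired cells (left) and clonotypes (right), on the vertical axis in percent, by sorted subset (horizontal axis), filled for TRAV3 and open for other TRAV chains, red for anti-CD137 and blue for control Ig, with exact 95% intervals. TRAV3 in anti-CD137 Tex reaches 41.5% for TRAJ31 and 39.7% for TRBV31 by cells, and 18.9% and 12.2% by clonotypes.

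Leaving out TRAV3 cells with TRAJ31 and TRBV31 gave a family share of 9.96% in anti-CD137 Tex against 3.00% in control Tex, a difference of 6.96 points (6.01 to 7.94). TRAV3-3 then stood at 1.69% in anti-CD137 Tex and 0.455% in control Tex, and TRAV3N-3 at 7.74% and, in control Tex, 2.04%. By clonotypes the family difference in Tex was then 0.360 points (-1.60 to 2.28).

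The largest TRAV3 clonotype of the series was of another kind. It joined TRAV3N-3 to TRAJ22 (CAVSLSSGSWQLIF) and was paired with TRBV17 (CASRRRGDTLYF). It is shown because it was found in all 3 anti-CD137 subsets, with capitals as above.
TRA of the TRBV17 receptor: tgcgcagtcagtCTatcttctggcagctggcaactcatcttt
TRB of the TRBV17 receptor: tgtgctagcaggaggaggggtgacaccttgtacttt
It had 116 cells in anti-CD137 Tex, 46 in anti-CD137 Tpex, where it was the largest of all clonotypes, and 10 in anti-CD137 Teff, and 0 cells in each control library. Its beta chain was in 91 anti-CD137 Tpex cells of the cell table, against the 46 with the pair. At Tpex barcodes of the anti-CD137 mice that were not in the cell table, the beta chain was at 390 and the pair at 49. Why the beta chain was found more widely than the pair was not tested, and this limits the Tpex count. Of the 10 Teff cells, 5 were in cluster 6 and 4 in cluster 1, the main cluster of Tpex.

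Another receptor, TRAV3N-3 with TRAJ32 and TRBV13-1, had 90 cells in anti-CD137 Tex and 0 paired cells in the Tpex and Teff libraries of the cell table. The partners of these receptors led by cells in that library. After TRAJ31 the most frequent TRAJ by cells were TRAJ22 (19.1%) and TRAJ32 (13.0%), and after TRBV31 the most frequent TRBV were TRBV17 (16.1%) and TRBV13-1 (15.0%). By clonotypes TRAJ31 (18.9%), TRAJ22 (10.0%) and TRAJ12 (6.67%) led, and TRBV31 (12.2%), TRBV29 (8.89%) and, with equal shares, TRBV19 and TRBV3 (7.78%).

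Control Tex held smaller and different TRAV3 receptors. The largest was TRAV3-4 with TRAJ39 and TRBV3 (22 cells), followed by TRAV3N-3 receptors with TRAJ6 and TRBV19 (21 cells), TRAJ16 and TRBV19 (20 cells) and TRAJ11 and TRBV10 (20 cells). TRBV19 was the leading partner in control Tex by cells (29.1%) and by clonotypes (21.9%, 14 of 64), against 7.78% of TRAV3 clonotypes in anti-CD137 Tex. The alpha chain of the TRAJ11 receptor (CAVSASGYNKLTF) was in 54 control Tex cells, of which 34 had no TRB contig. These 34 cells were all of the unpaired TRAV3 cells of control Tex, where 14.3% of TRAV3 cells were unpaired against 1.23% of other TRAV cells, and they enter no clonotype count. In control Tpex the largest TRAV3 clonotype had 14 cells (TRAV3N-3, TRAJ22, TRBV12-1), followed by 9 cells (TRAV3N-3, TRAJ12, TRBV1) and 7 cells (TRAV3N-3, TRAJ28, TRBV1). In anti-CD137 Tpex both clonotypes after the TRBV17 receptor had 4 cells, each of TRAV3N-3 with TRBV1. In anti-CD137 Teff the TRBV17 receptor was followed by TRAV3-3 receptors of 6 cells (TRAJ30, TRBV16) and 5 cells (TRAJ40, TRBV12-2), and the largest in control Teff had 3 cells.

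Between treatments 0 TRAV3 clonotypes were shared. Alpha chains were shared more often, since 136 nucleotide and 200 amino acid TRAV3 CDR3s with the same V occurred under both treatments. The amino acid CDR3s with V numbered 1212 with anti-CD137 and 1190 in the control. None of these counts was made for other TRAV, so none can be called particular to TRAV3. Within anti-CD137 mice 14 of 90 Tex clonotypes (15.6%) were also found in Tpex, against 18.4% of other TRAV clonotypes, and by cells 39.6% against 45.2%. In control mice 19 of 64 TRAV3 Tex clonotypes (29.7%, 18.9 to 42.4) were also in Tpex, against 44.7% of other TRAV clonotypes (41.7 to 47.8), and by cells 40.9% against 79.8%. In anti-CD137 Tpex the share of TRAV3 cells whose receptor was also in Tex was 22.8%, and 9.20% without the TRBV17 receptor. Sharing counts that involve anti-CD137 Tpex stand beside its shallow depth.

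By the authors' cluster numbers, TRAV3 Tex cells lay mostly in the cluster that held most other Tex cells of their treatment. In anti-CD137 Tex, 77.0% of TRAV3 cells (569 of 739) were in cluster 4 and 21.9% in cluster 3, against 76.6% and 22.6% of other TRAV cells. In control Tex 4.64% of TRAV3 cells (11 of 237) were in cluster 4 and 94.1% in cluster 3, against 8.12% and 89.7% of other TRAV cells. There the TRAV3 cells thus leaned more to cluster 3, which held all 34 unpaired cells with the alpha chain of the TRAJ11 receptor. The treatment difference in the cluster 4 share of TRAV3 Tex cells was 72.4 points (67.6 to 76.1). With each clonotype counted once per cluster, 63.4% in anti-CD137 Tex and 15.9% in control Tex were in cluster 4, a difference of 47.5 points (33.3 to 58.9). Among the larger receptors of anti-CD137 Tex, the share in cluster 4 varied, and of the TRAJ31 and TRBV31 cells as a whole 76.6% were there (71.3 to 81.4). It was 87 of 99 cells for the TRAV3N-3 receptor of that kind and 76 of 103 for the TRAV3-3 receptor, and 95 of 116 for the TRBV17 receptor. Within cluster 3, TRAV3 made up 15.0% of TRA cells in anti-CD137 Tex and 3.14% in control Tex, and within cluster 4 it made up 15.5% and, in control Tex, 1.74%. In Teff TRAV3 cells were somewhat more often in cluster 0 than other TRAV cells, with 44.4% against 40.2% in the anti-CD137 library and 49.2% against 44.2% in the control, and the interval of each difference lay above 0. This was not common to the copies. With anti-CD137 it was 47.3% for TRAV3N-3, 41.6% for TRAV3-3, 35.1% for TRAV3-1 and 30.4% for TRAV3-4. In control Teff it was 52.7% for TRAV3N-3, 44.2% for TRAV3-3, 43.5% for TRAV3-1 and 33.3% for TRAV3-4.

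The copies differed in their TRAJ partners. In the Teff libraries, whose clonotypes are mostly single cells, the median TRAJ number was 22 for TRAV3-1 and for TRAV3N-3, 38 for TRAV3-3 and 45 for TRAV3-4, against 30 for other TRAV. TRAJ segments numbered above 40, the ones nearest the TRAV region, were joined by 0.645% of TRAV3-1 clonotypes (1 of 155), 4.24% of TRAV3N-3, 40.2% of TRAV3-3 and 61.3% of TRAV3-4, against 25.4% of other TRAV. In both libraries together this share followed the order of the genes toward the TRAJ segments. TRAV3-3 and TRAV3N-3 differed although they share CDR1 and CDR2 and 287 of 291 exon bases. With anti-CD137 the share above 40 was 42.8% for TRAV3-3 and 4.05% for TRAV3N-3 in Teff, and in control Teff it was 37.3% for TRAV3-3 and 4.46% for TRAV3N-3. For TRAV3-4 the libraries were apart, with 76.4% in anti-CD137 Teff (63.0 to 86.8, 55 clonotypes) and 39.5% in control Teff (24.0 to 56.6, 38 clonotypes). In control Teff the share of TRAV3-4 was therefore close to that of TRAV3-3. The median length of CDR3 was 14 residues for each of the 4 copies.

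**Figure D5:**
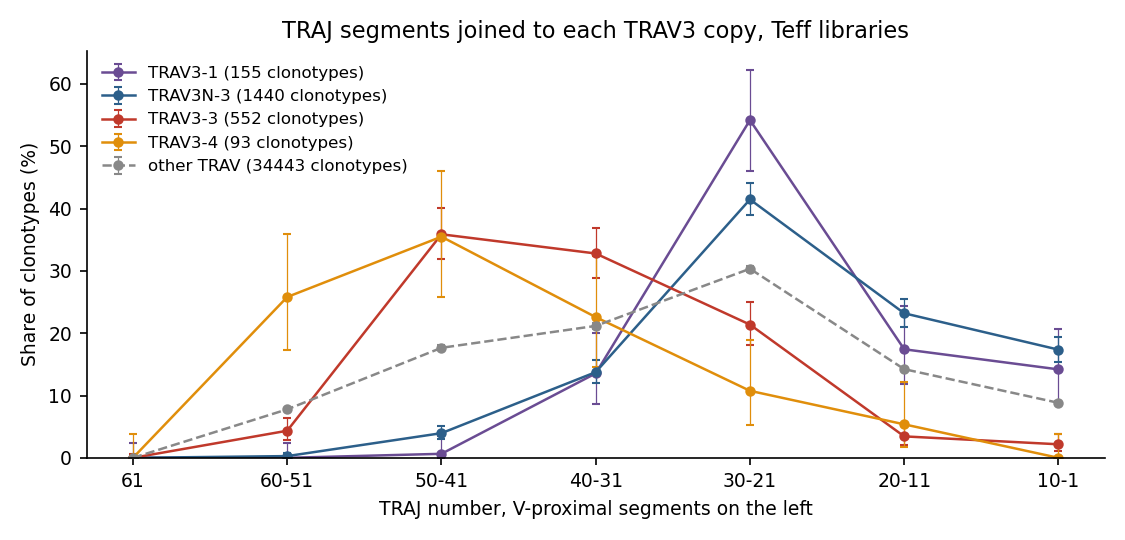
TRAJ segments joined to each TRAV3 copy in both Teff libraries together, as percent of clonotypes (vertical axis) per bin of TRAJ number (horizontal axis, segments nearest the TRAV region on the left), with exact 95% intervals. TRAV3-4 and TRAV3-3 peak at TRAJ41 to TRAJ50, and TRAV3N-3 and TRAV3-1 at TRAJ21 to TRAJ30, where 41.5% and 54.2% of their clonotypes lie.

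In 400 of 1295 TRAV3-3 contigs (30.9%) the substitution G215A was seen, with positions counted from the first base of the deposited framework 1 and the germline base given first. A is the germline base of TRAV3N-3 at this position, which is among the 4 that separate these copies, so the substituted contigs are closer to TRAV3N-3 than germline TRAV3-3 is. That share was 63.4% in anti-CD137 Tpex and 9.09% in control Tpex, and 30.1% in anti-CD137 Tex and 4.88% in control Tex. Both bases occurred within 12 of 14 TRAV3-3 clonotypes of at least 5 cells, and median TRA UMIs were 3 in contigs with the substitution and 6 in contigs without it. Whether reads of TRAV3N-3 entered these contigs, and what part they have in the split between both copies, was not tested. The family share does not depend on that split. G215A was not particular to TRAV3-3, since it was in 10.8% of TRAV3-1 contigs (30 of 279) and 5.10% of TRAV3-4 contigs (10 of 196). The substitutions A212C and G208C, which lead away from the base of TRAV3N-3, also recurred. They were in 6.81% and 3.23% of TRAV3-1, 2.08% and 0.772% of TRAV3-3, and 6.12% and 2.55% of TRAV3-4 contigs. Of barcode sequences of TRAV3 cells, 4 recurred in a second library with a TRAV3 chain, 0 of them with the same TRA.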

How the data were processed

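Cells were sorted from pooled spleens and gave 1 gene expression and 1 TCR library per treatment and subset, 12 samples in all. Per the submitters' processing notes, the build was mm10 and the tools included Seurat 4.0.0 and Cell Ranger 3.0.2. The deposited TCR table lists the chain, segments and CDR3 of each contig with its UMI and read count (192524 contigs, all flagged productive). For each cell the deposited cell table holds a UMI count, the percent of mitochondrial and ribosomal protein UMIs, cell cycle scores and a cluster number. The deposited score columns entered no printed result. Totals per library were 4556 to 20856 cells with a TRA, and the precision of each share is given by its interval.

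Barcodes within each library linked contigs to cells, and the contig with the most UMIs per chain was kept. Ties went to the contig with more reads. Clonotypes were pairs of nucleotide CDR3s. No source used here says how the authors treated doublets. Doublets were not called, and an alternative dropped cells with several TRB contigs. Shares have exact Clopper-Pearson 95% intervals, and differences have Newcombe square-and-add intervals (scipy 1.17.1, pandas 2.3.3, numpy 2.4.6, Python 3.11.15, matplotlib 3.10.9). TRAV segments were compared where they reached 1% in at least 1 library, and called where intervals did not overlap. This comparison was tested on simulated data in which each cell was drawn independently of the others. The simulation held no clonotypes, so it cannot check calls by cells, where many cells share a clonotype. A share of 0 allows up to 3 counts of the total.

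Named were all 5 copies, up to 3 of the largest TRAV3 clonotypes of at least 3 cells per library, the 3 leading TRAJ and TRBV, and 3 segments of like pattern. Receptors with TRAJ31 and TRBV31, the TRAJ32 and the TRAJ11 receptors were named after their values were seen. Germline segments were read from GENCODE M21 and counted from 1. The family, its copies and these rules were chosen with earlier results of these data known. Alternatives varied the chain, the cells and the definition of a clonotype.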

Additional observations from a re-analysis of the deposited data

Results flagged for a closer look

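The treatment difference in the share of TRA cells had opposite signs between subsets for 2 rare copies, and this difference was not tested. TRAV3-1 differed by 0.254 points in Tex and 0.0397 points in Tpex, and by -0.107 points in Teff. TRAV3-4 differed by -0.259 points in Tex and -0.00879 points in Tpex, and by 0.0500 points in Teff. Of these 6 differences, the intervals of the pair in Tex alone excluded 0, and that of TRAV3-4 included it without the largest clonotype.

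A higher TRAV3 share with anti-CD137 was also seen at TCR barcodes that are not in the cell table, which entered the shares over all TCR barcodes alone. In Tex it was 10.6% of such TRA barcodes with anti-CD137 (161 of 1522) and 4.15% in the control (10 of 241). In Tpex it was 6.64% with anti-CD137 (517 of 7785) and 3.36% in the control (44 of 1309). The intervals were apart in both subsets. These barcodes come from the same libraries and in part hold the same receptors, so their shares are no independent support. The TRBV17 receptor, for example, was at 30 of them in anti-CD137 Tex and 49 in anti-CD137 Tpex. What else these barcodes hold was not tested.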

How the results depend on the processing

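No paired analysis was possible because each treatment and subset has 1 library and the labels give no shared replicate. Of 71 alternative values over 8 results, 0 changed the sign of a difference whose interval excluded 0, and 58 lay inside the interval of the value as reported. The family difference by cells in Tex was 10.6 points without the largest TRAV3 clonotype of each library, 14.1 points with at least 3 TRA UMIs and 11.2 points over all TCR barcodes. Chosen after seeing the data, leaving out the 3 largest TRAV3 clonotypes of each library gave 7.20 points in Tex, 1.72 points in Tpex and 4.24 points for TRAV3N-3 in Tex, and leaving out TRAJ31 with TRBV31 gave 6.96 points for the family and 5.70 points for TRAV3N-3 in Tex. TRAV3N-3 in Tex differed by 5.60 points without the largest clonotype. The cluster 4 difference was 67.4 points in cells with at least 3000 UMIs and 47.5 points with each clonotype counted once per cluster. By clonotypes of at least 2 cells, the difference was 4.10 points in Tex and -2.88 points in Teff (-7.37 to 1.48). That filter depends on the cell numbers on which the family was selected, so the Tex value supports nothing. The causes were not tested. In the Tex and Tpex results by cells, all alternatives kept an interval above 0. A setting for productive contigs gave no other value, since 0 contigs in the file are flagged otherwise. In Tex and Tpex, TRAV3-1 and TRAV3-4 had 3 to 37 cells per library, which limits what can be said of them.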

Other observations

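Alpha chains beyond the main one were counted apart. Second TRA contigs were TRAV3 in 6.05% of cases in anti-CD137 Tex (26 of 430) and 2.66% in control Tex (13 of 489), with overlapping intervals. They were TRAV3 in 5.59% in anti-CD137 Tpex and 4.87% in control Tpex, and in 4.65% in anti-CD137 Teff and 4.90% in control Teff. Cells with a TRAV3 main chain had a second TRA in 3.92% of cases in anti-CD137 Tex, against 9.90% of cells with other TRAV in that library, and in 5.49% in control Tex, against 6.21% of cells with other TRAV.

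Teff cells whose TRAV3 receptor was also found in a PD1+ subset numbered 17 of 1247 with anti-CD137 (1.36%) and 5 of 1054 in the control (0.474%). For other TRAV it was 179 of 18987 with anti-CD137 (0.943%) and 133 of 16366 in the control (0.813%). The intervals of TRAV3 and other TRAV overlapped in each treatment. The TRBV17 receptor alone made up 10 of the 17 cells. Of the TRAV3 cells, 9 with anti-CD137 and 3 in the control lay in cluster 6. For other TRAV these were 122 of 179 with anti-CD137 and 64 of 133 in the control. In cluster 1, the main Tpex cluster, 6 TRAV3 cells came from anti-CD137 mice and 2 from control mice. For other TRAV these were 45 from anti-CD137 mice and 57 from control mice.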
